A study of Mus musculus with 6 samples.

Results

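Translation initiation factor genes were taken as the gene symbols that begin with Eif and a digit, which gave 50 genes of the 17680 symbols listed in the deposited tables; 4 other symbols with this prefix were not analysed here. The genes were chosen by name alone and were sorted by factor complex, from eIF1 to eIF6, into 8 groups. Their mRNA was followed in whole kidneys of LPS mice (3 libraries) and Control mice (3 libraries). LPS mice received bacterial lipopolysaccharide into the peritoneal cavity, which the series describes as a model of septic kidney injury, and Control mice received phosphate-buffered saline by the same route. Animals of both groups were C57BL/6 of wild-type genotype, were 6 to 8 weeks old and were sampled after 24 h. The labels number the samples LPS1 to LPS3 and Control1 to Control3, and the design text counts 3 mice in each group.

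Eukaryotic initiation factors bring the small ribosomal subunit, the initiator tRNA and an mRNA together at a start codon. The factor eIF2 carries the initiator tRNA, eIF2B recharges eIF2 with GTP, and eIF2 kinases slow this cycle under stress by phosphorylating the alpha subunit of eIF2. The cap-binding protein eIF4E, the scaffold eIF4G and the RNA helicase eIF4A form the eIF4F complex on the mRNA cap, and the eIF4E-binding proteins block its assembly until the kinase mTOR phosphorylates them. eIF3 bridges the mRNA and the small subunit, eIF5 and eIF5B complete the joining of the large subunit, and eIF6 keeps free large subunits apart from small ones.

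The 6 libraries held between 29097558 and 33454344 counts. Log2 expression correlated across genes at 0.982 to 0.986 between LPS libraries, 0.986 to 0.991 between Control libraries and 0.905 to 0.916 between the groups (genes are not independent replicates). Levels are given in CPM, library-size-normalised counts with TMM factors, or, where genes are set against each other, in the deposited FPKM, which is also divided by gene length. The tissue label was met by its markers. All 10 proximal tubule markers were detected and all 10 were lower in LPS kidneys, with summed levels of 12186 to 13681 CPM in LPS libraries and 41086 to 45051 CPM in Control libraries. Of 10 markers of other nephron segments 8 were lower, with sums of 5202 to 5655 CPM in LPS and 7103 to 7432 CPM in Control libraries. Neutrophil markers summed to 78.3 to 119 CPM in LPS and 2.96 to 3.88 CPM in Control libraries, where Mpo and Elane were at 0, and all 8 of the 12 that could be tested were higher. Monocyte and macrophage markers summed to 422 to 469 CPM in LPS and 163 to 255 CPM in Control libraries, with 5 of 12 higher and 4 lower. Plac8 alone held 188, 228 and 261 CPM of the sums of 422, 436 and 469 CPM in LPS1 to LPS3. It was 16.2-fold higher by the fit (log2 fold change 4.01 ± 0.14). Cd68, Ly6c2, C1qa and C1qb were also higher, and Csf1r, Ccr2, Cx3cr1 and Mrc1 were lower. The higher sum therefore does not stand for the list as a whole, and sums without Plac8 were not computed. The 4 lymphocyte markers of 10 that could be tested were lower, with sums of 1.90 to 3.44 CPM in LPS and 5.85 to 18.7 CPM in Control libraries. LPS2 stood apart in its seminal vesicle genes, of which 7 summed to 36237 CPM there. Their sums were 32.2 and 45.7 CPM in the other LPS libraries and 33.6 to 40.5 CPM in Control libraries. The part of these markers in the results that follow was not tested, and in bulk tissue fewer cells of a type and less RNA per cell cannot be told apart.

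Initiation factor mRNAs were mostly higher in LPS kidneys. Of the 50 genes 29 (58.0%) rose, 3 (6.00%) fell and 18 did not pass the threshold, an adjusted p of 0.05 in edgeR's quasi-likelihood test with Benjamini-Hochberg adjustment over all 14219 genes tested. Over all genes tested, 25.7% were higher and 24.8% were lower. All 50 genes passed the filter on low counts, so none was lost before the test. The median log2 fold change was 0.31 over the initiation factor genes and 0.01 over all genes tested. In 33 genes (66.0%) every LPS library lay above every Control library, against 30.5% of all genes tested, and in 3 genes (6.00%) every LPS library lay below, against 29.8%. Leaving out LPS2 left 27 genes higher and 3 lower.

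Most of these rises were small. Among the 29 genes that rose, 20 rose by less than 1.5-fold, 6 by 1.5-fold to 2-fold, and 3 by more: Eif6, Eif4ebp3 and Eif4ebp1. Thus 10.3% of the initiation factor genes that rose did so by 2-fold or more, against 32.0% of all genes that rose, whose median log2 fold change was 0.65. Together the 50 genes took 0.771, 0.783 and 0.826% of all counts in LPS1, LPS2 and LPS3, against 0.663, 0.662 and 0.678% in Control1, Control2 and Control3. The LPS libraries also differed among themselves, since LPS3 was the highest LPS library for 23 of the 29 genes that rose and LPS1 was the lowest for 23.

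**Figure D1:**
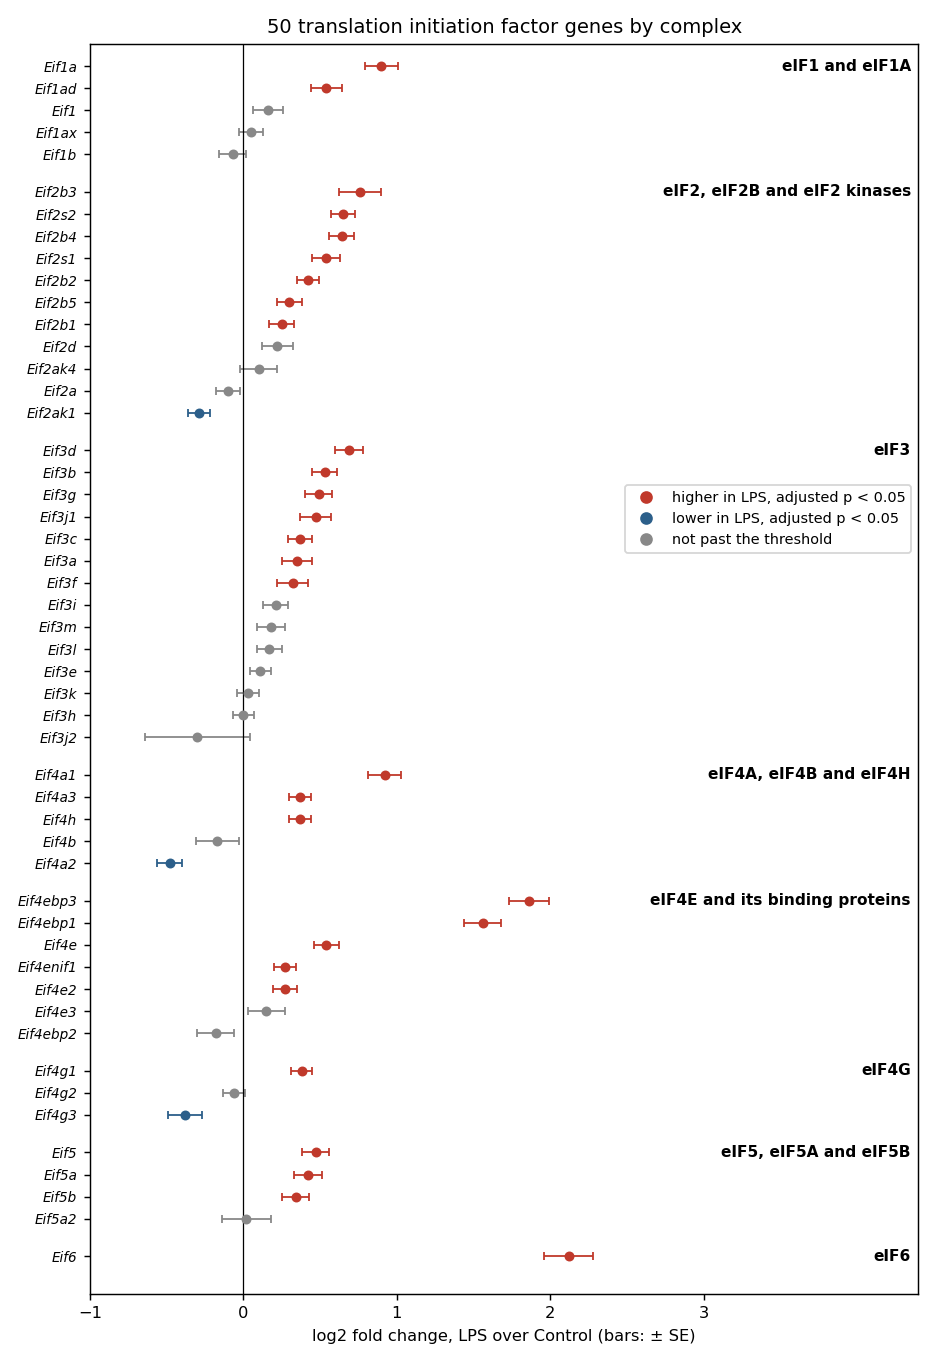
Log2 fold change of LPS over Control for each of the 50 initiation factor genes (horizontal axis, points with SE bars), sorted by complex from eIF1 at the top to eIF6 at the bottom and coloured by the edgeR call. Most points lie between 0 and 1; Eif4ebp1, Eif4ebp3 and Eif6 lie beyond 1, and the 3 genes that fell are Eif2ak1, Eif4a2 and Eif4g3.

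Per unit length, the most abundant initiation factor mRNA in both groups was Eif5a, at 324 ± 29.0 FPKM in LPS and 245 ± 9.96 FPKM in Control kidneys (SD, n = 3 each). Eif1 came second at 257 ± 30.2 FPKM in LPS and 232 ± 11.7 FPKM in Control kidneys, and in LPS kidneys it was followed by Eif4a1 at 237 ± 30.2 FPKM, and Eif1 and Eif4a1 overlapped within their spread. Eif6 took rank 4 of 50 in LPS kidneys and rank 22 in Control kidneys. Eif4ebp1 took rank 20 in LPS and rank 31 in Control kidneys, and Eif4a2 went the other way, with rank 22 in LPS and rank 15 in Control kidneys. Eif3j2 was the least abundant in both, at 0.49 ± 0.0399 FPKM in LPS and 0.611 ± 0.248 FPKM in Control kidneys.

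The eIF1 and eIF1A group held 5 genes, of which 2 (40.0%) rose and none fell, against 25.7% and 24.8% of all genes tested. The count of genes lower at an unadjusted p under 0.05 in edgeR was also 0, and DESeq2 and limma-voom called 0. Eif1a, an eIF1A gene whose protein helps the scanning ribosome settle on the start codon, had 90.4, 113 and 119 CPM in LPS1 to LPS3, against 59.1, 57.6 and 55.8 CPM in Control1 to Control3. All LPS libraries lay above all Control libraries, a log2 fold change of 0.90 ± 0.11 (SE; edgeR adjusted p = 1.26e-04). Eif1ad, which encodes a protein with an eIF1A-like domain, had 38.9, 40.0 and 46.6 CPM in LPS libraries, against 29.1, 26.2 and 30.9 CPM in Control libraries. Its groups did not overlap either, with a log2 fold change of 0.54 ± 0.10 (edgeR adjusted p = 0.00159).

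The other 3 genes of the group did not pass the threshold. Eif1, which guards start codon selection, had a log2 fold change of 0.16 ± 0.10 and overlapping groups (edgeR adjusted p = 0.210). Its close copy Eif1b stood at -0.07 ± 0.09 and the X-linked Eif1ax at 0.05 ± 0.08. The ratio of the eIF1A copies therefore shifted within each library: Eif1a over Eif1ax in FPKM was 1.63, 1.74 and 1.91 in LPS libraries, against 0.975, 1.01 and 0.95 in Control libraries. The mean log2 ratio differed by 0.84 without overlap (exact permutation test, two-sided, p = 0.1). With 3 libraries against 3 that is the smallest p the test can give, and all 12 ratios computed in this family reached it. Their Benjamini-Hochberg adjusted p is therefore 0.1 as well and none passes 0.05. How often ratios of other gene pairs separate was not computed. Among single genes, every LPS library lay above every Control library in 30.5% of all genes tested and below in 29.8%.

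In the eIF2 group of 11 genes, 7 (63.6%) rose and 1 (9.09%) fell, against 25.7% and 24.8% of all genes tested. Both subunit genes of eIF2 itself that were analysed here rose. Eif2s1, the alpha subunit that the stress kinases phosphorylate, had 59.7, 71.0 and 75.8 CPM in LPS libraries, against 48.1, 48.5 and 45.8 CPM in Control libraries. The lowest LPS library lay above the highest Control library, and the log2 fold change was 0.54 ± 0.09 (edgeR adjusted p = 0.00137). Eif2s2, the beta subunit, had 91.3, 105 and 109 CPM in LPS libraries, against 66.6, 63.9 and 64.5 CPM in Control libraries. It was 1.56-fold higher without overlap, a log2 fold change of 0.65 ± 0.08 (edgeR adjusted p = 2.38e-04).

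All 5 subunit genes of eIF2B, the exchange factor that reloads eIF2, rose. Eif2b3, a subunit of its catalytic part, had 16.2, 20.4 and 22.7 CPM in LPS libraries, against 11.8, 10.9 and 12.2 CPM in Control libraries. The groups stood apart by a log2 fold change of 0.76 ± 0.14 (edgeR adjusted p = 0.00165). Eif2b4 followed at 0.64 ± 0.08 and Eif2b2 at 0.42 ± 0.07, both regulatory subunits. The catalytic subunit Eif2b5 rose by 0.30 ± 0.08 and the regulatory subunit Eif2b1 by 0.25 ± 0.08 (edgeR adjusted p = 0.0238 for Eif2b1). Eif2b1 lost its call without LPS3 (adjusted p = 0.0745), without Control1 (0.0745) and without Control3 (0.0625). Eif2b5 over Eif2s1, the catalytic subunit over the alpha subunit of eIF2 in FPKM, was 1.66, 1.42 and 1.46 in LPS libraries, against 1.70, 1.85 and 1.75 in Control libraries. The mean log2 ratio differed by -0.22, lower in LPS without overlap (exact permutation test, two-sided, p = 0.1). This ratio does not stand for eIF2B as a whole. Eif2b3 and Eif2b4 rose by more than Eif2s1 (0.54 ± 0.09), and Eif2b2, Eif2b5 and Eif2b1 by less.

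Of the eIF2 kinase genes, Eif2ak1 and Eif2ak4 belong to the 50, and others were not analysed here. Eif2ak1, the haem-regulated kinase, had 71.5, 72.0 and 76.1 CPM in LPS libraries, against 85.8, 88.8 and 93.1 CPM in Control libraries. Every LPS library lay below every Control library, a fall to 0.820 of the Control level (log2 fold change -0.29 ± 0.07, edgeR adjusted p = 0.00867). Eif2ak4, the kinase that senses uncharged tRNA and is also called GCN2, stood at 0.10 ± 0.12 with overlapping groups. Eif2a and Eif2d, which can deliver initiator tRNA without eIF2, stood at -0.10 ± 0.08 and 0.22 ± 0.10 and did not pass the threshold. Eif2d passed it without LPS1 (log2 fold change 0.30, edgeR adjusted p = 0.0321).

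The eIF3 genes, which encode the largest initiation factor, were split. Of 14 genes 7 rose, none fell and 7 did not pass the threshold. At an unadjusted p under 0.05 in edgeR 8 were higher and 0 lower, and DESeq2 and limma-voom called 0 lower. Log2 fold changes ran from -0.30 for Eif3j2 to 0.69 for Eif3d, so subunits of one complex did not move by one factor. Eif3d, a subunit that can itself bind the mRNA cap, had 104, 117 and 125 CPM in LPS libraries, against 66.6, 76.3 and 70.4 CPM in Control libraries. It was 1.62-fold higher without overlap (log2 fold change 0.69 ± 0.09, edgeR adjusted p = 2.90e-04).

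Eif3b, which binds the g and i subunits, had 185, 202 and 212 CPM in LPS libraries, against 133, 142 and 139 CPM in Control libraries. The groups did not overlap, with a log2 fold change of 0.53 ± 0.08 (edgeR adjusted p = 6.74e-04). Eif3a, the largest subunit, had 196, 211 and 212 CPM in LPS libraries, against 146, 159 and 181 CPM in Control libraries. Its log2 fold change of 0.35 ± 0.10 passed the threshold (edgeR adjusted p = 0.0142) but not without Control1 (adjusted p = 0.0503) or Control2 (0.0553). Eif3g, Eif3j1 and Eif3c rose by 0.49 ± 0.09, 0.47 ± 0.10 and 0.37 ± 0.08. Eif3f rose by 0.32 ± 0.10 (edgeR adjusted p = 0.0247), and lost its call without LPS1 (0.0543), LPS2 (0.0506) or Control1 (0.0774).

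The other 7 eIF3 genes did not pass the threshold. Eif3i had a log2 fold change of 0.21 ± 0.08 (edgeR adjusted p = 0.0564), and passed the threshold without LPS1 (0.0282), with limma-voom (0.0441), with library sizes in place of TMM (0.0453) and in the 3 fits on FPKM (0.0259 to 0.0302). Eif3m, Eif3l and Eif3e stood at 0.18 ± 0.09, 0.17 ± 0.08 and 0.11 ± 0.07, and like Eif3i their LPS libraries all lay above their Control libraries. Eif3k stood at 0.03 ± 0.07 and Eif3h at 0.00 ± 0.07, with overlapping groups. Eif3j2, a copy of Eif3j1 with few reads, had 35, 40 and 40 counts in LPS libraries and 63, 33 and 37 counts in Control libraries, and its sign turned without Control1.

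Set per unit length, the 7 eIF3 genes that rose had 14.4 to 82.9 FPKM in Control kidneys, and the 6 not called other than Eif3j2 had 77.6 to 129.6 FPKM. Across 13 genes, Spearman's rho between log2 fold change and Control FPKM was -0.758. This is a description across subunit genes that share the same libraries, and Control FPKM enters both measures. The ratio of the most to the least abundant of the 12 subunits other than the 2 j copies was 3.50, 3.14 and 3.11 in LPS libraries, against 4.44, 4.27 and 3.99 in Control libraries. The most and the least abundant of these subunits thus lay closer together in each LPS library than in any Control library. The highest was Eif3h in every library and the lowest was Eif3a, or Eif3d in Control3. Spread over the subunits between these was not computed. Of the 8 octamer subunits (a, c, e, f, h, k, l and m), 3 rose, with a median log2 fold change of 0.17, and of the other 6 genes 4 rose, with a median of 0.48. This last split was chosen after the values were seen.

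**Figure D2:**
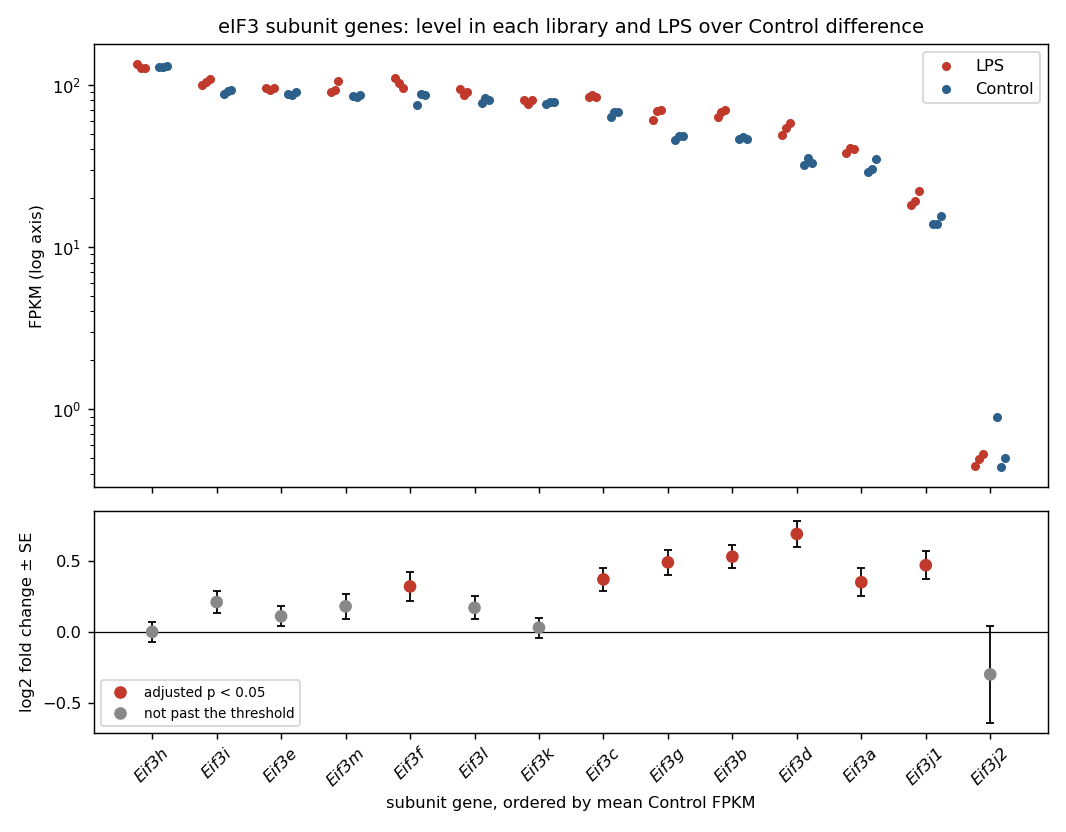
Upper panel: FPKM on a log axis of each eIF3 subunit gene in each LPS library (left of each pair) and Control library (right), ordered by mean Control FPKM. Lower panel: log2 fold change of LPS over Control with SE. The genes past the threshold are Eif3f and the 6 from Eif3c to Eif3j1; Eif3j2, at the far right, is not called and its 3 Control points spread widely.

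Among the helicase genes the 2 eIF4A copies moved in opposite directions. Eif4a1, the main helicase of eIF4F, had 383, 452 and 507 CPM in LPS libraries, against 246, 238 and 225 CPM in Control libraries. All LPS libraries lay above all Control libraries, 1.89-fold by the fit (log2 fold change 0.92 ± 0.11, edgeR adjusted p = 1.17e-04). Eif4a2, its close copy, had 255, 221 and 221 CPM in LPS libraries, against 333, 314 and 326 CPM in Control libraries. It fell without overlap to 0.716 of the Control level (log2 fold change -0.48 ± 0.08, edgeR adjusted p = 0.00122). Eif4a1 over Eif4a2 in FPKM was 3.64, 4.96 and 5.57 in LPS libraries, against 1.80, 1.84 and 1.68 in Control libraries. The mean log2 ratio was higher by 1.40 in LPS kidneys (exact permutation test, two-sided, p = 0.1), the second largest shift among the 12 ratios computed. Reads that align to both copies may have been dropped or split by the counting, whose setting is not given in the sources used here.

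The third helicase gene, Eif4a3, part of the exon junction complex, rose by 0.37 ± 0.07 on the log2 scale. Eif4h, a helper of the helicase, also rose by 0.37 ± 0.07. Eif4b, the other helper, had 382, 302 and 305 CPM in LPS libraries, against 302, 383 and 428 CPM in Control libraries. These groups overlapped, since LPS1 was level with Control2, and the log2 fold change of -0.17 ± 0.14 did not pass the threshold (edgeR adjusted p = 0.346).

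Promoter sequences are shown for the helicase copies, which moved in opposite directions, and for Eif4e, because the E-box CACGTG, a motif bound by Myc and related proteins, was searched in the windows of the initiation factor genes. A window runs from 250 bases before to 50 after a RefSeq transcript start (build GRCm38.p6), and 39 of the 50 genes have one. No window was available for Eif6, Eif4ebp3 or Eif4ebp1, the genes that rose most, so no motif was searched there. Capitals mark the E-box, which reads the same on both strands. The window of Eif4a1 is chr11:69672374-69672673 on the minus strand, that of Eif4a2 is chr16:23107218-23107517 on the plus strand, and that of Eif4e, the second of the 2 listed for that gene, is chr3:138527018-138527317 on the plus strand.
Eif4a1: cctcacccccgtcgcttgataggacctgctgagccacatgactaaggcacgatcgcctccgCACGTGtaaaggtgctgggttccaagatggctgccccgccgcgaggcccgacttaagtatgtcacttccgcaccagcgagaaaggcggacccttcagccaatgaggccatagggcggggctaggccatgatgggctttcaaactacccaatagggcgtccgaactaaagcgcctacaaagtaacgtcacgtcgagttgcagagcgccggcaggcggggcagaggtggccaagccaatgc
Eif4a2: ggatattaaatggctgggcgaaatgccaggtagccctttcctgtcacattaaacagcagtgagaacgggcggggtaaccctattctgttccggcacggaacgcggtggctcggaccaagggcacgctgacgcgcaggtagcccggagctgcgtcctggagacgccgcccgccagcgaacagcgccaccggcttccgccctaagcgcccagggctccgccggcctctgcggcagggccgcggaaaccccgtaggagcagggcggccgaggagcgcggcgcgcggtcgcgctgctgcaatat
Eif4e: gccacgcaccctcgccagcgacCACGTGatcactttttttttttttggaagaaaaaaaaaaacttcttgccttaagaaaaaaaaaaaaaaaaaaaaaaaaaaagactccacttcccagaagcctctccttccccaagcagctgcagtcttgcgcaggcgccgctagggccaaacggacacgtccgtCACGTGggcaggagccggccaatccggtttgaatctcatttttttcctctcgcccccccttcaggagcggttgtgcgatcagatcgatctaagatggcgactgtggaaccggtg

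The Eif4a1 window held 1 E-box, at position -189 relative to the start, and the Eif4a2 window held none. The Eif4e window printed held 2, at positions -228 and -64, and the other Eif4e window none. Over all initiation factor genes with a window, 10 of 39 (25.6%) held at least 1 E-box, against 11.3% of 11291 tested genes and 8.09% of all 27025 genes with windows of the same length. The motif stood in 7 of 24 genes that rose (Eif3a, Eif3f, Eif4a1, Eif4e, Eif4g1, Eif4h and Eif5a), in 0 of 3 that fell and in 3 of 12 not called (Eif1b, Eif3k and Eif5a2). The share was 29.2% of genes that rose and 25.0% of genes not called. The core of the amino acid response element bound by ATF4 was searched as TGATGNAA on both strands. It was found in 0 of the 39 genes with a window, against 2.79% of tested genes and 4.51% of all genes. Without a window, Eif6, Eif4ebp3 and Eif4ebp1 are outside all these shares. A gene counted as holding a motif if any of its windows did, and the number of windows per gene was not matched. A match is a match of letters in this window and says nothing of binding.

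The cap-binding group held the largest changes outside eIF6. Of 7 genes 5 (71.4%) rose and none fell, against 25.7% and 24.8% of all genes tested. At an unadjusted p under 0.05, 0 were lower in edgeR, and DESeq2 and limma-voom called 0 lower. Eif4e, the cap-binding protein itself, had 101, 107 and 116 CPM in LPS libraries, against 74.0, 75.8 and 73.7 CPM in Control libraries. The groups did not overlap and the log2 fold change was 0.54 ± 0.08 (edgeR adjusted p = 4.90e-04). Eif4e2, a homologue that binds the cap but represses translation, and Eif4enif1, a transporter and repressor of eIF4E, each rose by 0.27. Eif4e2 (edgeR adjusted p = 0.0186) lost its call without LPS3 (0.0585) or Control3 (0.0787) and on log2(FPKM + 1) with limma (0.0502). Eif4enif1 (edgeR adjusted p = 0.0150) lost its call without LPS2 (0.0684). Eif4e3, a low-abundance homologue, stood at 0.15 ± 0.12.

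The genes of the eIF4E-binding proteins, which hold eIF4E away from eIF4G, did not move together. Eif4ebp1 had 53.2, 49.5 and 57.0 CPM in LPS libraries, against 15.3, 17.8 and 21.0 CPM in Control libraries. Even the lowest LPS library was far above the highest Control library, and the gene was 2.95-fold higher (log2 fold change 1.56 ± 0.12, edgeR adjusted p = 9.01e-06). Eif4ebp3 had 58.3, 53.3 and 58.6 CPM in LPS libraries, against 12.6, 15.6 and 18.5 CPM in Control libraries. It was 3.64-fold higher without overlap (log2 fold change 1.86 ± 0.13, edgeR adjusted p = 6.02e-06). Eif4ebp2 had 78.1, 62.6 and 59.2 CPM in LPS libraries, against 67.4, 73.6 and 85.2 CPM in Control libraries. These groups overlapped and -0.18 ± 0.12 did not pass the threshold (edgeR adjusted p = 0.262), although without LPS1 it did, at -0.30 (adjusted p = 0.0421).

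In GENCODE M21, 501 of the 744 exonic bases of Eif4ebp3 (67.3%) are shared with AC115631.1, a gene on the same strand. Ankhd1, taken as a neighbour of Eif4ebp3, had 80.9, 70.3 and 62.6 CPM in LPS libraries, against 68.8, 65.8 and 78.8 CPM in Control libraries. The groups overlapped and its log2 fold change was 0.00 ± 0.11 (edgeR adjusted p = 0.985). Reads from AC115631.1 and from Eif4ebp3 in the shared bases cannot be told apart in these counts.

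Within each library the binding proteins changed places. Eif4ebp1 over Eif4ebp2 in FPKM was 1.24, 1.44 and 1.75 in LPS libraries, against 0.415, 0.44 and 0.45 in Control libraries. Eif4ebp1 was thus the more abundant per length in every LPS library and the less abundant in every Control library, a shift of 1.75 in log2 ratio (exact permutation test, two-sided, p = 0.1). Eif4ebp1 over Eif4e was 3.90, 3.39 and 3.61 in LPS libraries, against 1.53, 1.73 and 2.10 in Control libraries, a shift of 1.04. Eif4ebp2 over Eif4e was 3.14, 2.35 and 2.06 in LPS libraries, against 3.68, 3.92 and 4.67 in Control libraries, a shift of -0.72. The groups overlapped in neither ratio.

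**Figure D3:**
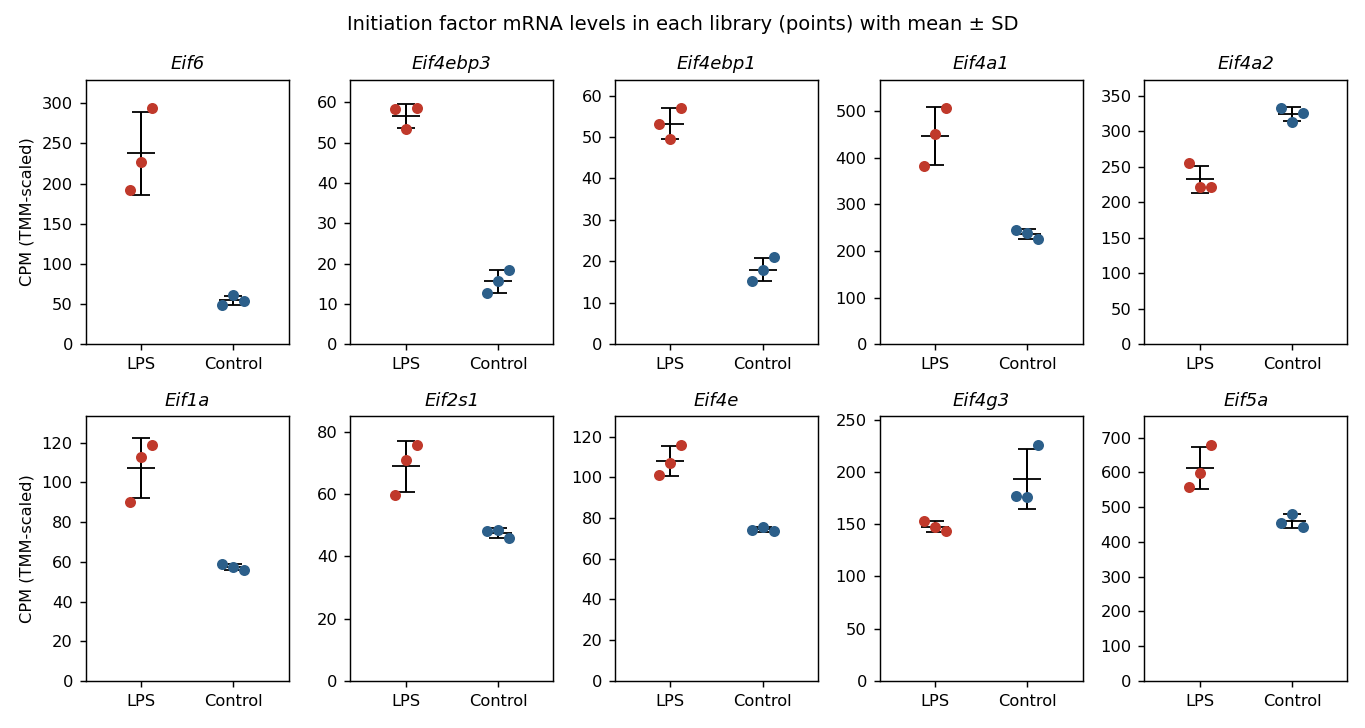
TMM-scaled CPM of 10 initiation factor genes in each library (points; LPS left, Control right) with mean ± SD over 3 libraries, each panel on its own axis from 0. The groups do not overlap in any panel; Eif4a2 and Eif4g3 are lower in LPS, and Control3 is far above the other Control libraries for Eif4g3.

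The scaffold genes of the eIF4G group went 3 ways. Of 3 genes 1 (33.3%) rose and 1 (33.3%) fell, against 25.7% and 24.8% of all genes tested. Eif4g1, the scaffold that joins the cap-binding protein, the helicase and eIF3, had 525, 559 and 548 CPM in LPS libraries, against 405, 407 and 441 CPM in Control libraries. It rose without overlap by 0.38 ± 0.07 on the log2 scale (edgeR adjusted p = 0.00251). Eif4g3, a second scaffold of the same kind, had 153, 147 and 143 CPM in LPS libraries, against 177, 176 and 226 CPM in Control libraries. It fell by 0.38 ± 0.11 on the log2 scale (edgeR adjusted p = 0.0166), with Control3 well above the other Control libraries, and without Control3 the log2 fold change was -0.25 and the call was lost (adjusted p = 0.0508). Eif4g2, a homologue that lacks the eIF4E-binding site, had 1079, 1098 and 1163 CPM in LPS libraries, against 1181, 1143 and 1160.3 CPM in Control libraries. Its groups overlapped (log2 fold change -0.06 ± 0.07, edgeR adjusted p = 0.502).

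Ratios within libraries showed the same order. Eif4g1 over Eif4g3 in FPKM was 5.99, 6.66 and 6.72 in LPS libraries, against 4.02, 4.06 and 3.43 in Control libraries, a difference of 0.76 in mean log2 ratio. Eif4g1 over Eif4g2 was 0.683, 0.715 and 0.661 in LPS libraries, against 0.481, 0.50 and 0.534 in Control libraries, a difference of 0.44. Neither ratio overlapped between the groups.

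**Figure D4:**
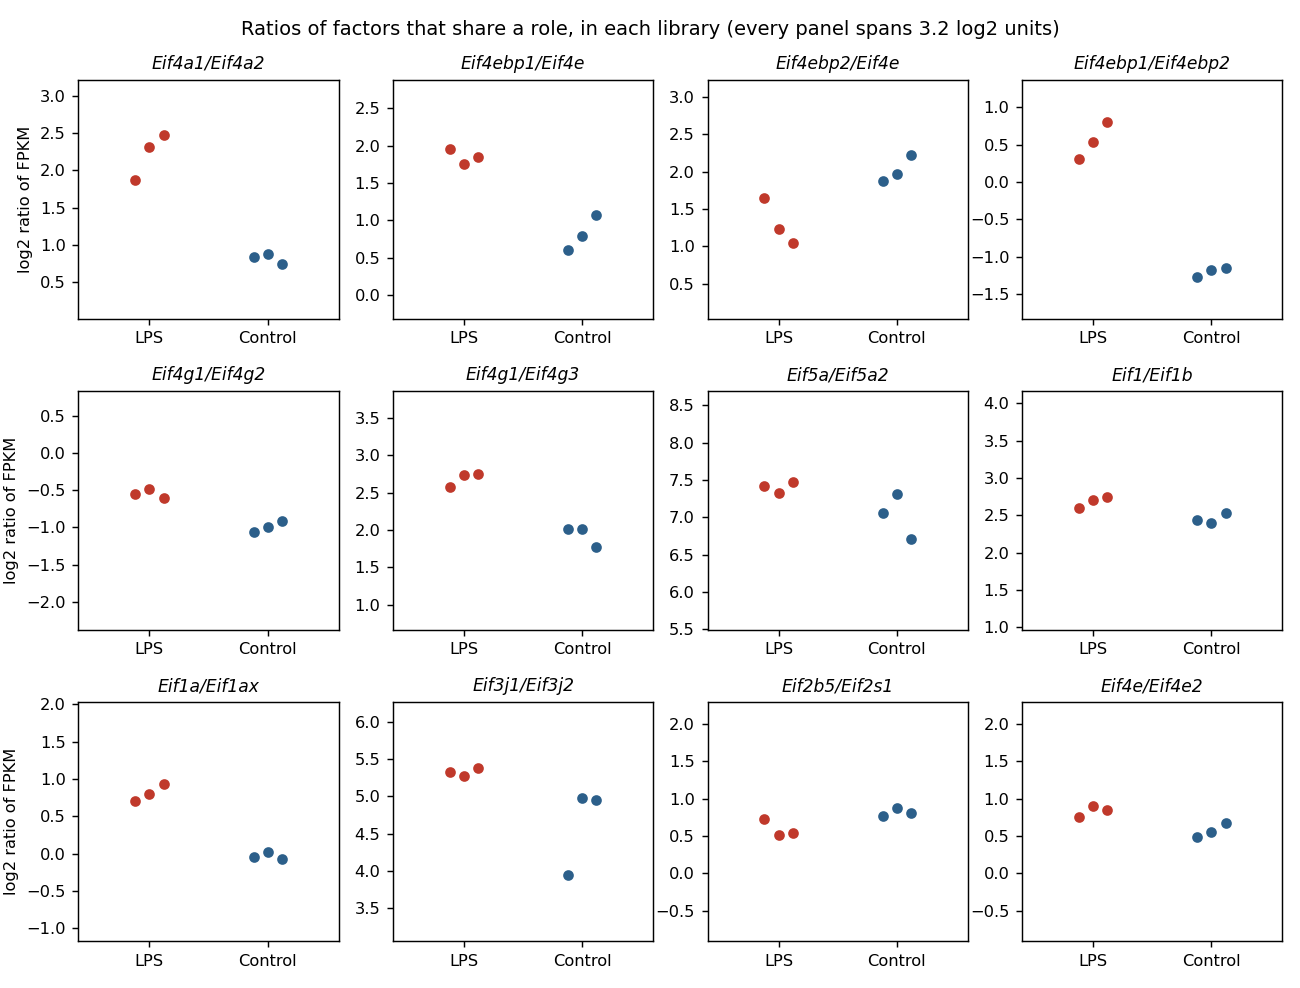
Log2 ratio of deposited FPKM for the 12 pairs of initiation factor genes that share a role, in each library (LPS left, Control right); all panels span the same number of log2 units. None of the 12 overlaps between the groups, and the share among other gene pairs was not computed. The ratio is lower in LPS for Eif4ebp2/Eif4e and Eif2b5/Eif2s1 and higher for the others.

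Of the 4 genes of eIF5, eIF5A and eIF5B, 3 (75.0%) rose and none fell, against 25.7% and 24.8% of all genes tested. At an unadjusted p under 0.05, 0 were lower in edgeR, and DESeq2 and limma-voom called 0 lower. Eif5, which triggers GTP hydrolysis by eIF2 at the start codon, had 354, 385 and 401 CPM in LPS libraries, against 252, 283 and 291 CPM in Control libraries. The groups did not overlap, with a log2 fold change of 0.47 ± 0.09 (edgeR adjusted p = 0.00173). Eif5a, the factor modified with hypusine that keeps elongating ribosomes moving, had 559, 599 and 679.6 CPM in LPS libraries, against 455, 481 and 442 CPM in Control libraries. It rose without overlap by 0.42 ± 0.09 (edgeR adjusted p = 0.00445). Eif5b, the GTPase of subunit joining, rose by 0.34 ± 0.09. Eif5a2, the second eIF5A gene, had 1.90 ± 0.136 FPKM in LPS and 1.89 ± 0.328 FPKM in Control kidneys, a log2 fold change of 0.02 ± 0.16.

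Eif6 changed more than any other initiation factor gene. It had 192, 227 and 294 CPM in LPS libraries, against 49.4, 61.0 and 54.0 CPM in Control libraries. Every LPS library lay far above every Control library, and LPS3 was the highest of all. The gene was 4.33-fold higher by the fit (log2 fold change 2.12 ± 0.16, edgeR adjusted p = 8.55e-06). Of the 14219 genes tested, 465 had a larger log2 fold change than Eif6. In FPKM its mean was 158 ± 32.7 in LPS and 36.7 ± 3.29 in Control kidneys (SD, n = 3 each).

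Other genes of protein synthesis were set beside the initiation factors in 5 lists. Of 13 tested elongation and release factors 7 rose and none fell (0 lower at an unadjusted p under 0.05 in edgeR, and 0 called by DESeq2 and limma-voom), with a median log2 fold change of 0.26. Eef1b2, an exchange factor for eEF1A, averaged 242 ± 12.1 CPM in the LPS group and 161 ± 3.96 CPM in the Control group (SD, n = 3 each), a log2 fold change of 0.58 ± 0.08. Etf1, the release factor that reads stop codons, rose by 0.50 ± 0.08 and Eef1g, another subunit of that exchange complex, by 0.44 ± 0.07. Eef1a1, the abundant carrier of aminoacyl-tRNA, named after its values were seen, averaged 6122 ± 309.6 CPM in the LPS group and 4684 ± 413 CPM in the Control group and rose by 0.39 ± 0.08. Genes that rose made up 53.8% of this list, against 25.7% of all genes tested, and their number was 5 without Control2.

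Partners of initiation that lack the Eif prefix were mixed: of 19 genes 7 (36.8%) rose and 5 (26.3%) fell, against 25.7% and 24.8% of all genes tested, with a median log2 fold change of 0.12. Pabpc1, the poly(A)-binding protein that binds eIF4G, averaged 506 ± 19.5 CPM in the LPS group and 307 ± 22.4 CPM in the Control group (log2 fold change 0.72 ± 0.08). Cyfip1, which can bind eIF4E, rose by 0.49 ± 0.07, and Paip2, an inhibitor of the poly(A)-binding protein, fell by 0.38 ± 0.08. The count of rises fell to 6 without LPS1, to 4 without LPS2, LPS3 or Control3, and to 3 without Control1 or Control2. The count of falls was 3 without LPS1, Control2 or Control3.

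Of 26 genes of mTOR complex 1 and its regulators 5 rose and 5 fell, shares of 19.2% each that lie under the 25.7% and 24.8% over all genes, with a median of 0.03. Sesn1, a stress-induced inhibitor of the complex, averaged 10.6 ± 0.406 CPM in the LPS group and 21.4 ± 1.58 CPM in the Control group, a log2 fold change of -1.01 ± 0.11. Rps6, a ribosomal protein phosphorylated downstream of the complex, rose by 0.53 ± 0.07, and Lamtor2, part of its lysosomal anchor, fell by 0.59 ± 0.08. Ddit4, another inhibitor, chosen after its values were seen, rose by 0.94 ± 0.17. Mtor itself, the kinase, also chosen after its values were seen, averaged 239 ± 41.6 CPM in the LPS group and 307 ± 55.9 CPM in the Control group and was not called (log2 fold change -0.36 ± 0.15, edgeR adjusted p = 0.0771). It passed the threshold in DESeq2 (adjusted p = 0.0326), without LPS1 (0.0178) and without Control1 (0.0290). The count of rises in the list was 3 without LPS2, Control1 or Control3.

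Genes of the eIF2 alpha phosphatases and of ATF4, the transcription factor whose mRNA is translated when eIF2 is phosphorylated, had the highest median of the 5 lists, a log2 fold change of 1.01. Of its 13 genes 9 (69.2%, against 25.7% of all genes tested) rose and none fell. At an unadjusted p under 0.05 edgeR put 2 of them lower, and without Control1 1 was called lower, while DESeq2 and limma-voom called 0. The list also holds Impact, Gcn1 and Sesn2, the last of which is in the mTOR list too. Their log2 fold changes were -0.31, 0.17 and -0.15, and that of the phosphatase gene Ppp1r15b was -0.20. These 4 genes were not called and were named after their values were seen. Ddit3, a stress transcription factor, averaged 33.7 ± 1.36 CPM in the LPS group and 8.91 ± 0.739 CPM in the Control group (log2 fold change 1.92 ± 0.10). Asns, asparagine synthetase, rose by 2.70 ± 0.25 and Atf3, another stress transcription factor, by 2.66 ± 0.26. For Asns LPS2 stood well above the other LPS libraries, with 20.2, 37.6 and 21.3 CPM in LPS1 to LPS3. Atf4 itself rose by 0.78 ± 0.10 and Ppp1r15a, the inducible subunit of the eIF2 alpha phosphatase, by 1.01 ± 0.13, both named after their values were seen.

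A list of mitochondrial translation factors, of initiation, elongation, recycling and release, mostly went the opposite way from the cytosolic ones. Of 10 genes 6 (60.0%, against 24.8% of all genes tested) fell and 0 rose, with a median of -0.44 (edgeR put 0 higher at an unadjusted p under 0.05, and DESeq2 and limma-voom called 0). Tufm, the mitochondrial elongation factor Tu, averaged 99.7 ± 5.14 CPM in the LPS group and 154 ± 7.10 CPM in the Control group, a log2 fold change of -0.63 ± 0.08. Gfm2, a ribosome recycling factor, fell by 0.54 ± 0.06 on the log2 scale and Mtif3, a mitochondrial initiation factor, fell by 0.51 ± 0.07. Mtif2, another mitochondrial initiation factor, stood at -0.06 ± 0.09 and Tsfm at -0.06 ± 0.08. These last genes were not called and were named after their values were seen. The fall of the proximal tubule markers moved with this list, and its part was not tested.

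**Figure D5:**
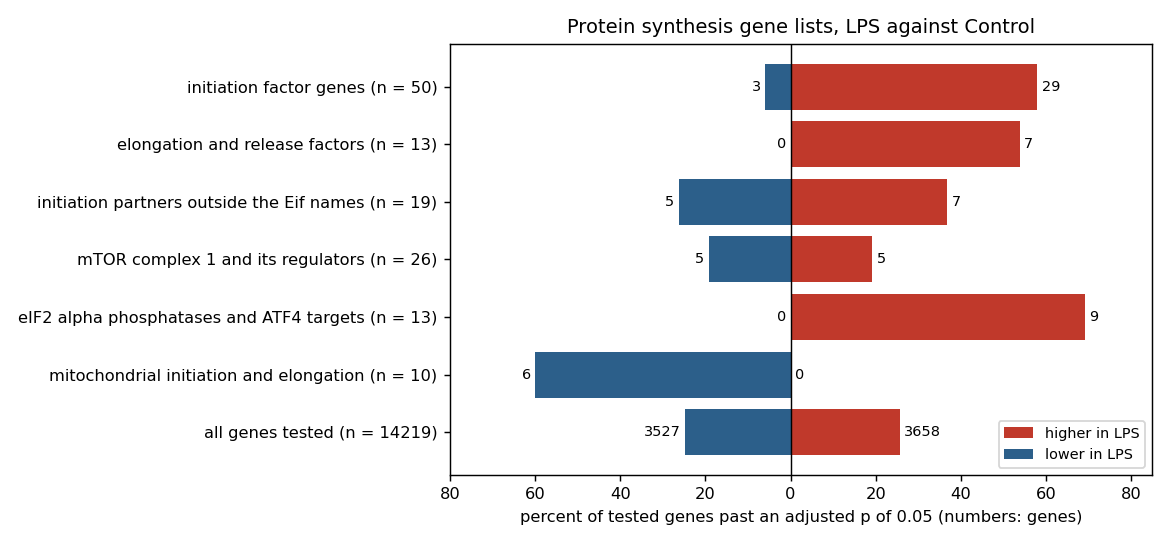
Percent of tested genes past the threshold in edgeR in LPS against Control, to the right for higher and to the left for lower, for the 50 initiation factor genes, 5 lists of other protein synthesis genes and all 14219 genes tested; the number of genes stands at each bar. Initiation, elongation and release factors lie mostly to the right and the mitochondrial factors to the left.

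Some counts may include reads of neighbouring genes. In GENCODE M21, 11 of the 50 genes share exonic bases with another protein-coding gene. The shares below Eif4ebp3 were 19.0% for Eif3j1 with Spg11, 16.8% for Eif5b with Rev1, 15.3% for Eif1ad with Banf1 and 14.8% for Eif4e3 with Gm20696. For Eif2ak1 the share with Aimp2 was 8.59% and for Eif4a2 with Rfc4 3.63%. The strand setting of the counting is not given in the sources used here.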

How the data were processed

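Kidney RNA of 6 mice was sequenced in bulk, 1 library per mouse. For every library the authors deposited raw counts by gene symbol, and likewise FPKM. The submitters' processing notes name R 3.2.0, DESeq2, SAMtools, HTSeq and HISAT2 without their roles. Build, annotation and strand setting: not given in the sources used here. The deposited FPKM equalled count over length and library total in 106077 of 106080 values, within a relative tolerance of 1e-06.

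Groups came from the sample titles. The main test of the counts used edgeR 4.0.16 (R 4.3.3): filterByExpr defaults (minimum count 10, minimum total 15) kept 14219 genes and removed 3461, TMM factors scaled the libraries, and LPS was tested against Control two-sided by quasi-likelihood, with Benjamini-Hochberg adjustment over all genes kept. A change was called at an adjusted p of 0.05. SE is the log2 fold change over the root of the F statistic. Ratios of FPKM within a library were compared with exact permutation tests. The procedure was tested on simulated data with far fewer changed genes than were called here, so the test does not cover changes as widespread as these. Alternatives used DESeq2 1.42.0, limma 3.58.1, other scalings, filters and units, a replicate block, and each library left out; pseudocounts on log2(FPKM) were 1 and 0.1. The same-numbered samples did not deviate together, so the numbers were not used to pair them.

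Every initiation factor gene was named. Values per library were given for the 2 called genes of each complex with the largest absolute log2 fold change, for any with an absolute value of at least 1, and for Eif2s1, Eif3a, Eif4a1, Eif4e, Eif4g1, Eif4ebp1, Eif5a and Eif6. In other lists the 3 genes with the smallest p were named. Eef1a1, Mtor, Ddit4, Atf4, Ppp1r15a, Ppp1r15b, Impact, Sesn2, Gcn1, Mtif2 and Tsfm were added after their values were seen. Genes and lists were chosen with earlier results of these data known. Per-library values of Eif2ak1, Eif4b, Eif4ebp2, Eif4g2, Eif3j2, Ankhd1, Plac8 and Asns were added after they were seen.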

Additional observations from a re-analysis of the deposited data

How the results depend on the processing

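The fit over all genes was repeated under 17 alternatives, which gave a value for every initiation factor gene except Eif3j2, with 16, since a minimum mean FPKM of 1 removed it. The ratios were recomputed from scaled counts and with each library left out. Scaled counts cannot change the group difference of a log2 ratio, since gene length and library scaling cancel. The eIF3 range was recomputed with each library left out only, and the promoter motifs under no alternative. The number of initiation factor genes higher in LPS lay between 28 and 30 under the other settings and between 26 and 30 with a library left out, and the number lower was 3 and between 2 and 4. The median log2 fold change lay between 0.30 and 0.32, and between 0.27 and 0.34 with a library left out. Of the 50 genes 41 kept their call in all alternatives that gave a value, 38 of them with the same sign throughout, and 9 gained or lost it. Calls over all genes numbered 7185, between 6176 and 7251 under other settings and between 6087 and 7156 with a library left out. Scaling moved the median of all genes by -0.005 (RLE factors) or -0.01 (library sizes).

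Replicate numbers did not pair the samples. Between same-numbered libraries, deviations of log2 expression from the group means correlated across genes at 0.0478, -0.0535 and -0.00201. By this measure LPS2 and LPS3 did not correlate best with their own number. With the replicate block 6745 genes were called, and among the initiation factor genes only Eif2b1 lost its call (adjusted p = 0.0659). The initiation partners that rose numbered 4 under the replicate block. With a library left out these partners numbered 3 to 6 higher and 3 to 5 lower, the mTOR list 3 to 6 higher, and the eIF2 alpha phosphatase and ATF4 list 0 to 1 lower. That last count was 2 with library sizes in place of TMM, and 1 with a mean CPM of at least 1 and in each of the 3 fits on log2(FPKM). The eIF4E and eIF4G groups had 0 to 1 lower with a library left out. The range of log2 fold changes among eIF3 genes, 0.99, ran from Eif3j2, a gene with few reads, to Eif3d in the main fit. This range lay between 0.67 and 1.23 with a library left out. The cause was not tested.

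Signs turned only in genes that were not called. Eif3h stood at 0.01 with no count filter and between -0.03 and 0.01 with a library left out. Eif3j2 lay between -0.48 and 0.05, the 0.05 without Control1, and Eif5a2 between -0.09 and 0.16. Depth limits Eif3j2 most, with at most 63 counts in a library. With 3 libraries a group the exact test of a ratio gives no p under 0.1.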
